A study of Arabidopsis thaliana with 3 samples.

Results

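The genes described here are 38 Arabidopsis thaliana genes named for autophagy or membrane traffic, out of 13355 genes with a probe set of their own on the array. They were chosen by symbol. A gene belonged if its symbol began with ATG, PRA1, VPS, SYP, VAMP, EXO70, SEC or RAB. The symbols matched 42 genes, and 4 were left out (ATGLR1.2, ATGP4, ATGRIP and ATGSTF13) because their ATG is the species prefix At joined to a name in G. The ATG family held 8 genes, PRA1 9, VPS 10, SEC 10 and RAB 1 (RAB6A). No symbol in the annotation used here begins with SYP, VAMP or EXO70, so those families are not analysed here.

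Leaves of 2 week old plants were profiled on 3 arrays with a different genotype on each. They were untreated Col-0 and 2 lines in the Col-0 background that carry MKK2, a MAP kinase kinase, overexpressed as the wild-type protein or as a constitutively active variant. The array called line A is titled w.t.4 and has EE4 in its source name, while line B is titled EE4 and has w.t.4 in its source name, so no direction between the variants is given. The labels give neither the promoter of the transgene nor the number of plants in a sample. With 1 array per genotype no value has a replicate error and no test could be made. All differences below compare these arrays, not the genotypes. Both lines were set against the same Col-0 array, so any deviation of that array enters both ratios.

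Autophagy carries cytoplasm to the vacuole inside double membrane vesicles, and the ubiquitin-like ATG8 proteins are anchored in that membrane by a conjugation pathway that includes ATG3. Membrane traffic relies on Rab GTPases, which mark compartments and are bound by PRA1 proteins in the membrane. ESCRT complexes, to which most VPS genes here belong, sort proteins into vesicles inside endosomes on their way to the vacuole. The exocyst, made of SEC subunits and others, tethers secretory vesicles at the plasma membrane.

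The deposited values are MAS5 signals on a linear scale in arbitrary units, and a floor of 25 replaced every lower signal before ratios were taken. The summed signal of RCA, LHCB4.1 and LHCB4.2, the 3 of 16 listed leaf genes with a named probe set, was 16449 on the Col-0 array, 15215 on that of line A and 16582 on that of line B. The root hair gene EXPA7, the pollen genes AGL66 and AGL104 and the mitotic kinase gene AUR2 were under the floor on all 3 arrays. The guard cell gene FAMA (FMA) had signals of 55.0, 41.0 and 52.4, and the mitotic kinase gene AUR1 of 39.9, 31.3 and 35.2, in the order Col-0, line A, line B. This order of arrays holds wherever 3 signals are given without names. Ratios of 3′ to 5′ signal in 6 control pairs, a sign of RNA integrity, were above Col-0 in both lines for 4 pairs and below it for the 2 ubiquitin pairs. The part of these markers and ratios in the results was not tested. In leaf RNA, fewer cells of a type and less RNA per cell cannot be told apart. Signals of different probe sets are not comparable as levels, so each gene is compared only with itself.

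Of the 38 genes, 29 were at or above the floor on all 3 arrays and 5 were under it on all of them (PRA1.G1, VPS2.2, VPS24.2, SEC5B and SECA2). The remaining 4, PRA1.B4, PRA1.H, SEC15A and SEC1B, crossed the floor between arrays. Under the floor throughout were 13.2% of these genes, against 43.5% of all genes with a probe set of their own.

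**Figure D1:**
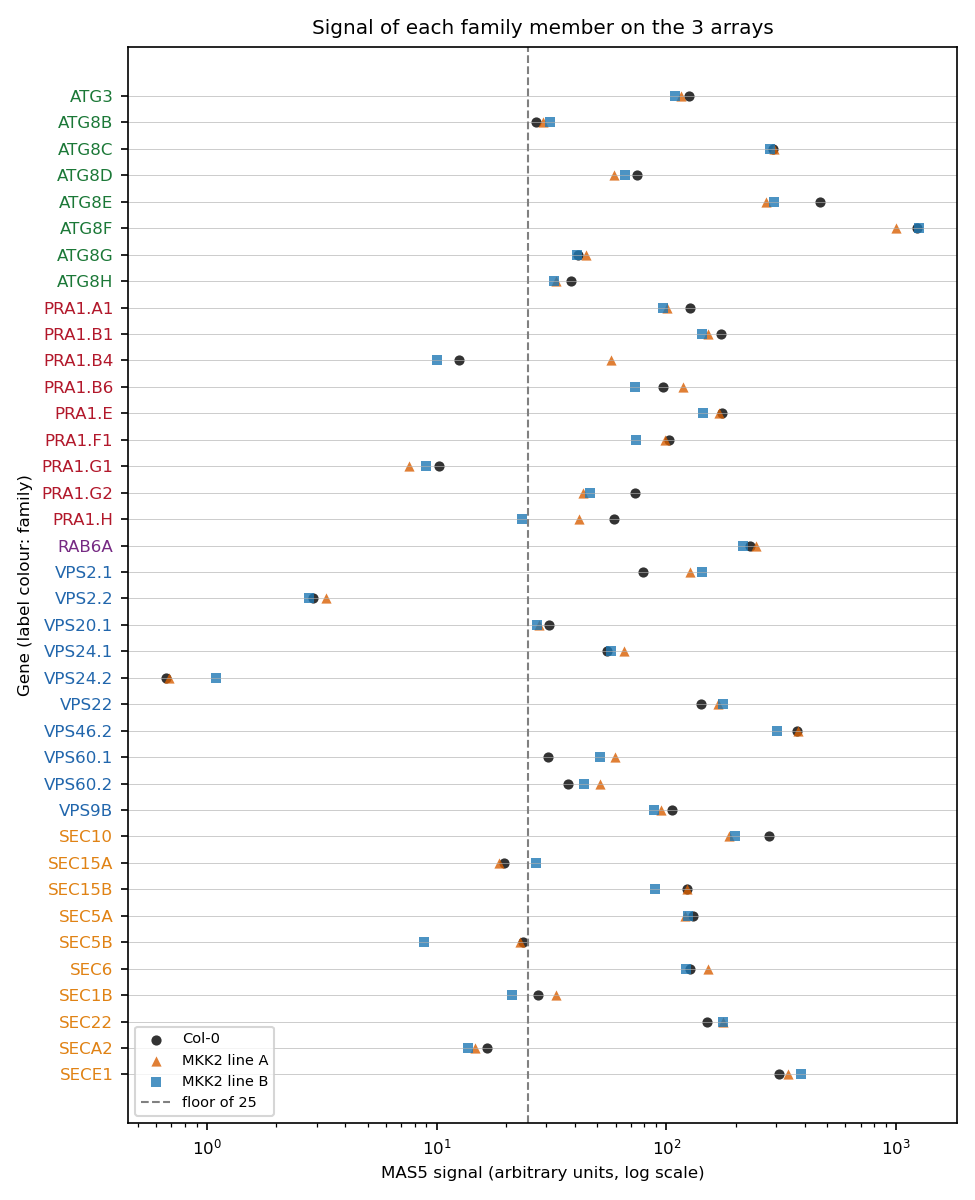
MAS5 signal (log axis, arbitrary units) of each of the 38 genes on the Col-0 (circle), line A (triangle) and line B (square) arrays, 1 row per gene, with the floor of 25 as a dashed line. Symbols of most genes lie close together, while PRA1.B4 stands apart in line A, at 57.4 against 12.5 in Col-0 and 10.03 in line B.

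The families lay close to Col-0 in both lines. In line A, 1 gene, PRA1.B4, was 2-fold or more above Col-0 and none was 2-fold below it. Of all genes, 1.07% were 2-fold or more above Col-0 in line A and 0.285% below it. In line B, 1 gene, PRA1.H, was 2-fold or more below Col-0 and none above it, where 0.337% of all genes were below and 0.674% above. Between the lines, PRA1.B4 was the 1 gene that differed 2-fold or more, being higher in line A, and 0.419% of all genes were higher and 0.135% lower. With 1 gene among 38 in each comparison, these counts are read as near the background.

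A smaller step of 1.5-fold showed more of the genes. In line A, 3 were above Col-0 by that much (PRA1.B4, VPS60.1 and VPS2.1) and 2 below (ATG8E and PRA1.G2), where 2.66% of all genes were above and 3.7% below. Line B had VPS2.1 and VPS60.1 above Col-0 and ATG8E, PRA1.G2 and PRA1.H below, where 2.66% of all genes were above and 2.61% below. Line A was 1.5-fold or more above line B at PRA1.B4, PRA1.B6 and PRA1.H, where 1.79% of all genes were. It was that far below at none of the 38 and at 2.49% of all genes. Among the 27 genes with a signal of at least 50 on 1 array or more, 5 differed 1.5-fold or more from Col-0 in each line, or 18.5%, against 12.1% in line A and 10.7% in line B of all genes that bright. Between the lines 3 differed, or 11.1%, against 7.91%. With 3 to 5 genes behind each share, no excess is read from them.

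Over the 38 genes, with those under the floor counted as 0, the median log2 ratio stood at 0.00 for line A, -0.06 for line B and 0.04 for line A over line B. Over all genes it was 0 in each comparison, because many are under the floor. The highest signal of a gene was 1.27 times its lowest, at the median of the 27 brighter genes, and also 1.27 times at the median of the 5299 genes of that brightness. Highest and lowest were within 1.5-fold for 74.1% of the 27 genes and 79.8% of the larger set, and within 2-fold for 92.6% and 94.8%. Within 1.2-fold were 6 of the 27, or 22.2%, against 35.3% of the larger set, a difference that was not tested.

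**Figure D2:**
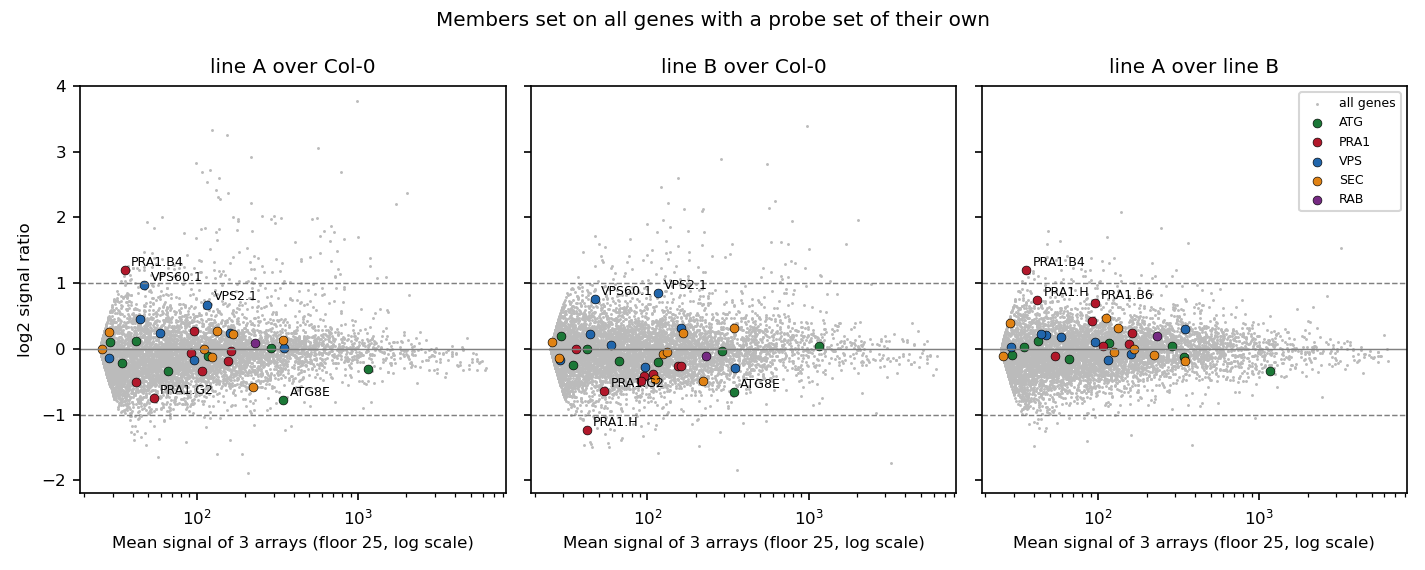
Log2 signal ratio (y axis) against the mean signal of the 3 arrays (x axis, log scale, floor 25) for genes at 25 or more on 1 array (grey) and for the autophagy and traffic genes (coloured by family), in the 3 comparisons, with dashed lines at 2-fold. Most coloured points lie inside the grey cloud, and those 1.5-fold or more from 0 carry their names.

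ATG8E had the largest difference among the autophagy genes, with less signal in both lines. ATG8 proteins coat the growing autophagosome and bind its cargo receptors, and 7 genes whose symbol begins with ATG8 have a named probe set. The genes with the synonyms ATG8A and ATG8I carry the symbols APG8A and APG8H and so fall outside the symbol rule. APG8A read 141.4, 141.6 and 121.7 on the Col-0, line A and line B arrays, and APG8H 512, 474 and 473. ATG8E had a signal of 466 on the Col-0 array, 271 on that of line A and 295 on that of line B. Col-0 thus stood above both lines, which lay near each other. The difference was 1.72-fold for line A and 1.58-fold for line B (log2 ratios of -0.78 and -0.66). Among genes with a mean signal from 200 to 400, the central 95% of log2 ratios ran from -0.67 to 1.09 in line A and from -0.66 to 0.84 in line B. ATG8E lay below that range in line A and on its edge in line B.

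ATG8F read 1229.5 on the Col-0 array, 995 on that of line A and 1261 on that of line B. Here line A was low, by 1.24-fold against Col-0, and line B matched Col-0 within 1.03-fold. ATG8D had 74.6, 58.9 and 65.8 in the same order, so line A was 1.27-fold and line B 1.13-fold below Col-0. ATG8C was the steadiest of the group, with 291, 293 and 283, and its highest signal was 1.03 times its lowest. ATG8B, ATG8G and ATG8H were dim, between 27.1 and 44.6 on every array. ATG8H is one of the ATG8 forms that end in the glycine needed for lipid attachment, so it needs no trimming by the ATG4 protease. Its log2 ratios were -0.21 for line A and -0.24 for line B.

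ATG3, the conjugating enzyme that passes ATG8 to its lipid, had signals of 125 on the Col-0 array, 116 on that of line A and 109 on that of line B. The enzyme gene was thus within 1.15-fold on all arrays. Over the 8 genes of the ATG family, 3 were above Col-0 in line A and 5 below, with a median log2 ratio of -0.16. In line B, 2 were above and 6 below, with a median of -0.11. Of all genes at 25 or more on 1 array, 62.2% were below the Col-0 signal on the line A array and 54.8% on that of line B, so a small deficit was common on these arrays. Between the lines the family split evenly, 4 to 4, with a median of -0.03, which was 0.02 under quantile normalization.

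With the main floor, the PRA1 genes had the widest range of log2 ratios of any family in each comparison. For line A over Col-0 it ran from -0.75 to 1.199. The family also held all 3 genes that differed 1.5-fold between the lines. In each comparison the outermost PRA1 ratio was a bound, from PRA1.B4 or PRA1.H, each with a signal under the floor. The ranking of families by range therefore depends on the floor and is not read as a trait of the family. PRA1 proteins span the membrane and bind Rab GTPases that carry a lipid tail, a role first worked out for their yeast and mammalian relatives. PRA1.B4 had a signal of 12.5 on the Col-0 array, 57.4 on that of line A and 10.03 on that of line B. The gene was over the floor on the line A array alone, and the other values were both under it. Line A was therefore at least 2.30-fold above Col-0 and at least 2.30-fold above line B. With a floor of 50 the log2 ratio of PRA1.B4 in line A was 0.199 in place of 1.199, and with a floor of 10 it was 2.203 against Col-0 and 2.52 against line B.

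PRA1.H was low in line B, with signals of 58.9 on the Col-0 array, 41.7 on that of line A and 23.4 on that of line B. Col-0 was highest, line A intermediate and line B just under the floor. Line B was at least 2.36-fold below Col-0, and line A was 1.41-fold below it. At a floor of 50 the log2 ratio of PRA1.H in line B was -0.24 in place of -1.24. PRA1.G2 had 72.6, 43.1 and 46.4, so both lines lay below Col-0, by 1.68-fold for line A and 1.56-fold for line B, and within 1.08-fold of each other.

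PRA1.B6, known in Arabidopsis for its part in protein export from the endoplasmic reticulum, had 96.9 on the Col-0 array, 118 on that of line A and 72.7 on that of line B. Line A was 1.21-fold above Col-0 and line B 1.33-fold below it. Line A was 1.62-fold above line B (log2 ratio 0.69), where the central 95% of genes with a mean signal from 50 to 100 ran from -0.69 to 0.69, which leaves PRA1.B6 at its upper edge. PRA1.F1 had 102.8, 98.7 and 73.4, and again line B was low, 1.40-fold below Col-0.

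PRA1.A1 read 126 on the Col-0 array, 100.3 on that of line A and 96.8 on that of line B. PRA1.B1 read 172, 151.5 and 143, and PRA1.E 174, 170.1 and 144. Each of the 3 was highest in Col-0 and lowest in line B, with line B between 1.201-fold and 1.302-fold below Col-0. PRA1.G1 stayed under the floor, at 10.2 or less.

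Across the 9 PRA1 genes, 0 were above Col-0 in line B, 7 were below it and 2 gave no ratio because both signals were under the floor. The median log2 ratio in line B was -0.38, the furthest from 0 of any family median here, and -0.27 at a floor of 50. In line A, 2 were above Col-0 and 6 below, with a median of -0.06. Most genes at 25 or more on 1 array also read lower than on the Col-0 array, 62.2% of them for line A and 54.8% for line B. Line A was above line B at 7 of the 9 and below it at 1, with a median of 0.24 (0.080 at a floor of 50). Of all genes at 25 or more on 1 array, 39.4% had the higher signal in line A and 56.1% had it in line B. These are counts on single arrays, and the difference between families was not tested. PRA7 and PRA8 have the synonyms PRA1.F2 and PRA1.F3 and stand outside the symbol rule. PRA7 read 178, 127 and 129, and PRA8 367, 295 and 270, so both lines were below Col-0 for each. Line A was 1.02-fold below line B at PRA7 and 1.09-fold above it at PRA8.

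RAB6A, a Golgi Rab GTPase of the RABH class, had 232 on the Col-0 array, 246 on that of line A and 215 on that of line B. Its highest signal was 1.14 times its lowest. It was the sole gene found for the RAB prefix, so nothing is said of Rab GTPases as a group.

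**Figure D3:**
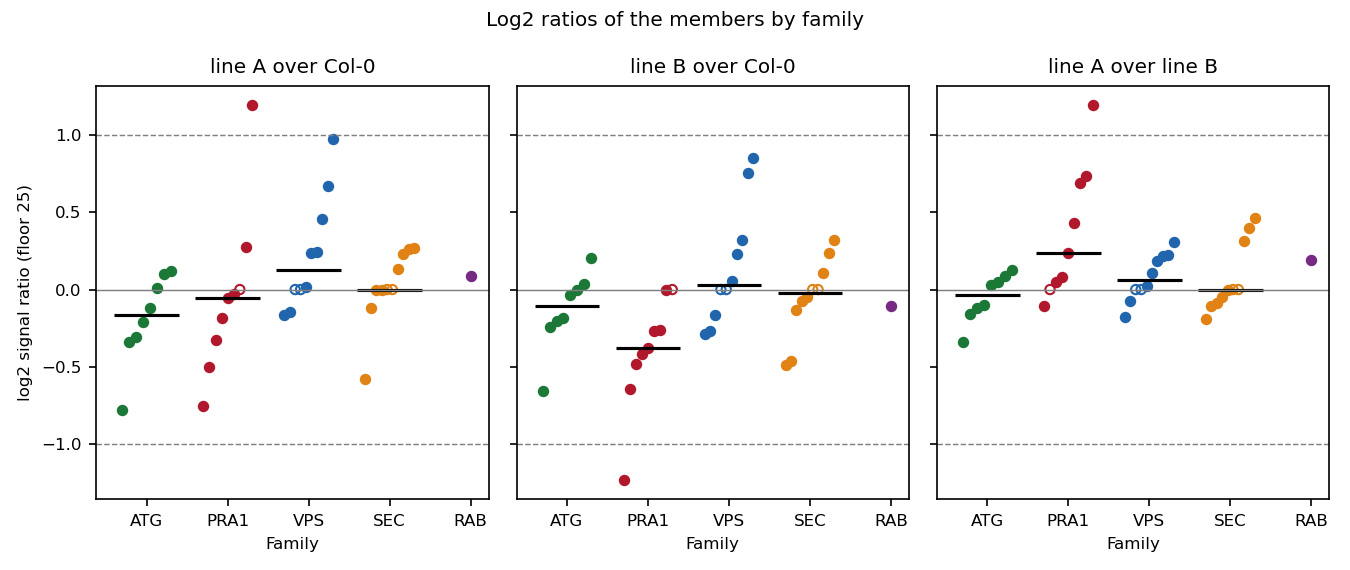
Log2 signal ratios (y axis, floor 25) of the genes of each family (x axis) in the 3 comparisons; filled points are genes at 25 or more on 1 array, open points are genes under the floor throughout, black bars are medians over all genes of a family, and dashed lines mark 2-fold. The PRA1 median lies at -0.38 in line B over Col-0, and the VPS points reach 0.97 in line A.

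Some ESCRT genes had more signal in both lines, led by VPS60.1 and VPS2.1. VPS2.1, a core ESCRT-III subunit, had 79.1 on the Col-0 array, 126 on that of line A and 143 on that of line B. Both lines were above Col-0, by 1.60-fold for line A and 1.80-fold for line B. Its log2 ratios of 0.67 and 0.85 lay inside the central 95% of genes with a mean signal from 100 to 200, which ran from -0.66 to 1.06 for line A and from -0.64 to 0.87 for line B. VPS60.1 is the relative of a yeast protein that helps the VPS4 ATPase take ESCRT-III apart. It had 30.5 on the Col-0 array, 59.8 on that of line A and 51.5 on that of line B, so line A was 1.96-fold and line B 1.69-fold above Col-0. Its Col-0 signal was near the floor, and with a floor of 50 the log2 ratios were 0.26 in place of 0.97 for line A and 0.044 in place of 0.76 for line B. The central 95% of genes with a mean signal from 25 to 50 ran from -0.80 to 0.66 in line A and from -0.73 to 0.64 in line B, and VPS60.1 lay above both ranges. For genes with a mean signal from 50 to 100 the upper limits were 0.79 in line A and 0.78 in line B. The line B ratio of VPS60.1, 0.76, is under the second of these, so its place depends on the band. Of the 33 family genes at 25 or more on 1 array, 30 lay inside the range for their own signal for line A over Col-0, 31 for line B over Col-0 and 30 for line A over line B.

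VPS60.2, its close relative, had 37.3, 51.2 and 43.8, with line A 1.37-fold and line B 1.17-fold above Col-0. VPS22, a subunit of ESCRT-II, which acts before ESCRT-III, had 141, 167 and 176, or 1.19-fold and 1.25-fold above Col-0. For both genes the Col-0 array was the lowest of the 3. VPS24.1, another core ESCRT-III subunit, had 55.2, 65.1 and 57.4, and was high in line A alone, by 1.18-fold.

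Other ESCRT genes did not share this order. VPS46.2, also known as CHMP1A, acts in sorting auxin carriers in Arabidopsis, and had 369.5 on the Col-0 array, 374 on that of line A and 302 on that of line B. Line B was the low array, 1.22-fold below Col-0. VPS20.1, whose yeast relative starts the ESCRT-III polymer, read 30.7, 27.8 and 27.4. VPS2.2 and VPS24.2, paralogs of VPS2.1 and VPS24.1, had at most 3.31 and 1.09, far under the floor, and gave no ratio.

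Taking the 9 ESCRT genes in the VPS family, line A was above Col-0 at 6 and below it at 1, while line B was above it at 5 and below it at 2. Their median log2 ratio came to 0.24 for line A and 0.06 for line B, with the 2 genes under the floor counted as 0. Of all genes at 25 or more on 1 array, 34.4% were above the Col-0 signal on the line A array and 44% on that of line B. VPS9B is the non-ESCRT gene of the family, a relative of the VPS9A exchange factor that activates endosomal Rab GTPases. It had 106.04, 94.7 and 88.0, with both lines below Col-0, by 1.12-fold and 1.21-fold. For all 10 VPS genes the medians were 0.13 for line A and 0.03 for line B. Genes that carry a VPS name only as a synonym are not in these counts. Below Col-0 in both lines were AT2G36680 (VPS37-2), with log2 ratios of -0.68 and -0.56, and AT5G04920 (VPS36), with -0.08 and -0.18. SNF7.1 and SNF7.2 share the synonym VPS32. SNF7.2 was below Col-0 in both lines and SNF7.1 above it.

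Of the exocyst genes, SEC10 was lower in both lines and SEC15B in line B, while SEC5A and SEC6 stayed nearer to Col-0. SEC15A and SEC5B had signals near or under the floor. SEC10 had 281 on the Col-0 array, 187 on that of line A and 199.5 on that of line B. Line A was 1.497-fold and line B 1.41-fold below Col-0, just inside the 1.5-fold step. Col-0 carries a near-identical tandem copy of SEC10, and whether the probe set reads both copies is uncertain. SEC15B, a relative of the yeast subunit that binds a Rab GTPase, had 123 on the Col-0 array, 123 on that of line A and 89.1 on that of line B. Line B was thus the low array, by 1.38-fold, while Col-0 and line A were alike. SEC6, a core subunit, had 126, 152 and 122, and there line A was the high array, by 1.205-fold against Col-0.

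SEC5A was steady, with 131, 120.3 and 124. SEC15A passed the floor in line B alone, at 26.9, and SEC5B had 23.8, 23.0 and 8.79, under the floor on all arrays. Over the 6 exocyst genes the median log2 ratio came to 0.00 for line A and -0.06 for line B. EXO84B, an exocyst subunit outside the symbol rule, had 201 on the Col-0 array, 156 on that of line A and 139.7 on that of line B, so it too was lower in both lines, by 1.29-fold and 1.44-fold.

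The other SEC genes are of 3 kinds. SEC22, a SNARE of traffic between the endoplasmic reticulum and the Golgi, had 149.6 on the Col-0 array, 176 on that of line A and 176 on that of line B, both 1.18-fold above Col-0. SEC1B, of the SEC1 and Munc18 family that regulates SNAREs, was dim, with 27.5, 32.9 and 21.3. SECE1 and SECA2 share the prefix but belong to protein translocases of the chloroplast, SECE1 in the thylakoid membrane and SECA2 in the inner envelope. SECE1 had 309, 338 and 386, with line B 1.25-fold above Col-0, and SECA2 was at or under 16.6. The SEC family's median log2 ratio stood at 0.00 for line A and -0.02 for line B.

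Some genes carry a name of these families only as a synonym in the reference and stand outside the symbol rule. They were 15, among them APG8A, APG8H and ATSYP24, and were looked up after values had been seen. Of these, 1 differed 1.5-fold or more for line A over Col-0, and 0 did for line B over Col-0 or for line A over line B. That gene was AT2G36680, with the synonym VPS37-2 and signals of 113, 70.9 and 76.8. Both lines were below Col-0 there, by 1.60-fold for line A and 1.48-fold for line B. Genes of the same pathways also came from lists of partners outside the symbol rule. The lists covered autophagy regulators, SNAREs, small GTPases, coats, tethers, ESCRT subunits and sorting receptors, and 18 genes had a named probe set. KEU, SNF7.1 and SNF7.2 were among both the 15 and the 18, so the sets overlap. Of the 18, 0 differed 1.5-fold or more in any of the 3 comparisons, where 6.36% of all genes did for line A over Col-0, 5.27% for line B over Col-0 and 4.28% for line A over line B. For a list of 18 this is near the background. The median log2 ratio of the 18 came to -0.07 for line A and -0.16 for line B. In line A, 5 were above Col-0 and 11 below, and in line B 4 were above and 12 below. A lean to lower signal was common, since 62.2% of all genes at 25 or more on 1 array read lower than Col-0 for line A. For line B this share was 54.8%, and no deficit of these partners is read from the counts. SNF7.1, an ESCRT-III gene, had 47.5, 52.4 and 67.3, while its paralog SNF7.2 had 81.9, 69.5 and 55.5, so line B was the highest array for one and the lowest for the other. ELC, of ESCRT-I, had 179.6, 204 and 168, and RAPTOR1, a partner of the TOR kinase that restrains autophagy, had 107.8, 100.9 and 122. ECHIDNA (AT1G09330), a protein of the trans-Golgi network, had 234, 166 and 182, with line A 1.41-fold and line B 1.29-fold below Col-0. KEU, a relative of SEC1B, had 189, 195 and 164.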

How the data were processed

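The authors deposited 1 MAS5 intensity per probe set and array, per the submitters' processing notes. The sources used here give no software version, scanner setting or detection call. The 2% trimmed mean was 100.01 on every array, and each array was scaled again to exactly 100. Of 22810 probe sets, 64 controls were left out. The platform annotation named 1 gene for 13513 of the rest, several for 503 and none for 8730, and 13436 of the first matched a TAIR10.1 reference gene. The brightest probe set stood for each gene. All 38 genes have 1 probe set, none with a suffix that marks several targets. Coordinates and sequences are not used here.

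Counts are of differences of 2-fold or more. Where 1 of the signals is under the floor, the ratio is a bound. Arrays have no depth, and their number limits the precision. The central 95% of ratios leaves 5% of genes outside by construction.

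The genes, lists and thresholds were chosen with earlier results of these data known. Genes named with values are those 2-fold different, the 6 furthest each way with a signal of at least 50, and the brightest of each family. The remaining genes are given to account for every one. Partner lists were matched by symbol or synonym. The symbol CHC1 was left out because at AT5G14170 it names a chromatin gene, not clathrin, and CHMP1A because it is VPS46.2. The counting was tested on simulated data. Alternatives were no rescaling, quantile normalization, floors of 10 and 50, a pseudocount of 16, folds of 1.5 and 3, the mean of probe sets, no suffixed probe sets and only genes at 50 or more. Added after seeing the data were only genes at 25 or more, leaving out SECA2 and SECE1, and counting ATGRIP. Python 3.11.15, numpy 2.4.6, pandas 2.3.3 and matplotlib 3.10.9 were used.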

Additional observations from a re-analysis of the deposited data

Results flagged for a closer look

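PRA1.B6 was the 1 gene of these families that was above Col-0 in one line and below it in the other by at least 1.2-fold each way. Line A had a log2 ratio of 0.28 and line B one of -0.42. That difference, 0.69, was not tested because there is no second array of either line.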

How the results depend on the processing

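With 1 array per genotype, an array left out leaves no comparison. No paired analysis was possible because each genotype has 1 array. Counts of 2-fold differences rested on dim signals. For line A over Col-0, 1 gene became 2 under quantile normalization, where VPS60.1 reached a log2 ratio of 1.105, and 0 at a floor of 50. For line B over Col-0, 1 became 2 at a floor of 10, which added SEC5B, and 0 at a floor of 50 or with the pseudocount of 16. For line A over line B, 1 became 2 at a floor of 10, which again added SEC5B, and 0 at a floor of 50. At 1.5-fold the counts were 5, 5 and 3, and at 3-fold 0, 0 and 0. A median was taken as moved when it shifted by 0.1 or more on the log2 scale. At a floor of 10 the median of the 38 genes in line B was -0.17 and that of SEC in line B -0.17. A floor of 50 gave -0.058 for ATG and 0.0263 for VPS in line A, -0.27 for PRA1 in line B and 0.080 for PRA1 between the lines. Only genes at 50 or more gave -0.30 for ATG and 0.25 for VPS in line A, -0.18 for the families together and 0.23 for VPS in line B, and 0.18 for VPS between the lines. Only genes at 25 or more gave 0.24 and 0.14 for VPS in lines A and B. The remaining 178 of 204 recomputed counts and medians stayed within 0.1, or within 1.5 times for counts. No rescaling, the mean of probe sets and no suffixed probe sets gave 18 of these each, and could change little or nothing here. By contrast, a floor of 50 moved 7 results and left 11. The total is therefore no measure of stability. Of 13 single-gene ratios at 1.5-fold or more, none changed sign under the alternatives run, and 1, PRA1.H between the lines at a floor of 50, became 0. A floor or a pseudocount can change the size of a ratio but cannot turn its sign. The other alternatives, apart from quantile normalization, leave a gene's own ratio all but as it was. Only quantile normalization could therefore have turned a sign.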
